A study of Mus musculus with 8 samples.

Results

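The basal and the apical section of the organ of Corti were compared in mice that lack Dicer1 in hair cells. The comparison used 4 of the 8 arrays in the series, 2 from the base and 2 from the apex of Dicer1 conditional knockouts, chosen by their sample titles. The knockouts (cKO) were Atoh1-Cre;Dicer1(flox/flox) and the littermate controls Atoh1-Cre;Dicer1(flox/wt), all at postnatal day 16. The controls therefore carried the Cre transgene and 1 floxed allele as well. A sample was the tissue of 1 region from both ears of 1 mouse, amplified in 2 cycles and hybridised to 1 Affymetrix array. The values are MAS5 signals, given here as log2, so that a difference of 1 is a 2-fold difference in signal. The same comparison in controls, with 2 arrays per region, is given where it shows how the knockouts differ.

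The cochlea is tuned along its length: the base responds to high frequencies and the apex to low ones. Hair bundles, the tectorial membrane and the electrical properties of hair cells change gradually along this axis. Dicer1 encodes the enzyme that cuts precursor hairpins into mature microRNAs, among them the miR-183 family of sensory cells. Atoh1-Cre is used to act in hair cells, which are a small share of the cells in this tissue beside supporting cells, neurons, bone and lateral wall.

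Median signals of the 4 cKO arrays ran from 71.5 to 86.1, with the trimmed mean of each array set to 500. Across genes, the log2 values correlated at r = 0.975 between the apical and 0.978 between the basal cKO replicates. They correlated at 0.952 to 0.961 between a cKO apex and a cKO base. Markers fixed for the sensory epithelium varied in level. Myo7a, a stereocilia myosin, had log2 signals of 7.68 to 9.17 over the 4 arrays, and Sox2, a supporting cell factor, 9.30 to 10.91. The hair cell fate factor Atoh1 (3.96 to 5.42) lay under the filter, a log2 signal of 5.27 averaged over all arrays. The fixed marker Slc26a5 lay under it too, at a mean of 3.75 over all arrays. The cKO basal means of Pou4f3 (4.84) and Tecta (5.25) were also under 5.27. Markers of other tissues ranged from low to high. Averaged over all arrays, log2 signals were 6.37 for Acta1 of skeletal muscle, 7.04 for Prtn3 of neutrophils, 8.77 for Kcnq1 of the stria and 9.70 for Tubb3 of neurons. Others were higher. Mbp, a myelin protein, had log2 signals of 14.32 to 14.59, and Coch, a fibrocyte protein of the lateral wall, 14.50 to 14.83, so each array holds RNA of a mixed tissue. In such bulk samples fewer cells of a type and less RNA per cell cannot be told apart.

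In the knockouts 9 genes were lower and 2 higher in the base than in the apex. The lower genes included the hair cell transcripts Smpx, Pcp4 and Acbd7, at 3.39- to 5.86-fold, and the largest was Tunar at 6.51-fold. The higher genes were Ppp1r1b (8.87-fold) and Chad (2.77-fold). These 11 genes passed limma at an adjusted p under 0.05, which is 0.0832% of the 13221 genes tested, with 0.0681% lower and 0.0151% higher. At an unadjusted p under 0.05 there were 1490 genes (11.3%), 742 higher (5.61%) and 748 lower (5.66%), where 661 are expected by chance. Across all genes the median difference was -0.02. The cKO samples of the 2 regions did not overlap for many genes, with the base above in 23.2% and below in 25.6% of all genes. Lack of overlap was also part of the rule for naming genes, so it is no added support for those named.

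The count of 11 depended on how the spread was estimated. Apical and basal samples of 1 number are presumed to come from the same mouse. With the mouse as a fixed block no gene passed, with 2 residual degrees of freedom and adjusted p = 0.055 by limma for each of the 11. With the mouse as a random block 81 genes passed, all 11 among them. No gene passed without any 1 of the 4 cKO samples or without either control apical sample, while 315 passed without control base replicate 1 and 316 without control base replicate 2. The direction of all 11 held in each of these fits, but it could not have turned. Their cKO samples did not overlap, and neither a block nor leaving out a control sample changes the cKO difference.

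**Figure D1:**
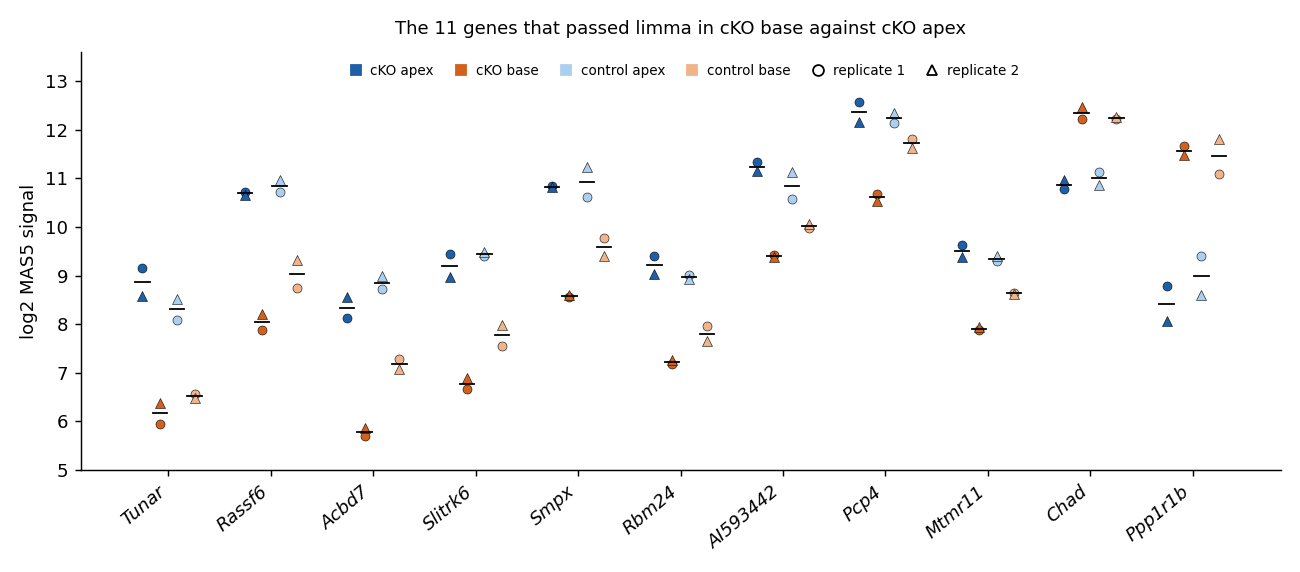
Log2 MAS5 signal (vertical axis) of the 11 genes that passed limma, ordered from the most negative to the most positive base minus apex difference in cKO. Circles are replicate 1, triangles replicate 2, and bars the means of 2 samples. The cKO basal and apical samples do not overlap for any of the 11, as the rule for naming them required. The genes run from Tunar (9.15 and 8.59 in the apex, 5.95 and 6.39 in the base) to Ppp1r1b (8.77 and 8.06, then 11.65 and 11.48).

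Among the lower genes, Rassf6, a member of the Ras association domain family, had the smallest p. Its log2 signals were 10.72 and 10.66 in the apical and 7.88 and 8.21 in the basal cKO samples. Both basal values lay more than 2 log2 units under both apical ones. The difference was -2.65 ± 0.24 (log2, SE), or 6.26-fold (adjusted p = 0.0461, limma). Tunar, annotated as a long noncoding RNA of neural tissue, stood at 9.15 and 8.59 in the apex against 5.95 and 6.39 in the base (-2.70 ± 0.30, adjusted p = 0.0461, limma). Slitrk6, a membrane protein needed for innervation of the inner ear, gave 9.44 and 8.96 against 6.66 and 6.88. That is a difference of -2.43 ± 0.25, with the apical pair clear of the basal pair, as the rule for naming required (adjusted p = 0.0461, limma).

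The hair cell transcripts among them had the same pattern. Acbd7, an acyl-CoA binding protein, had log2 signals of 8.12 and 8.55 in the apical and 5.71 and 5.86 in the basal cKO samples (-2.55 ± 0.25). Smpx, a small cytoskeletal protein mutated in an X-linked deafness, had 10.84 and 10.81 against 8.57 and 8.60 (-2.24 ± 0.24). Pcp4, a calmodulin-binding peptide, had 12.58 and 12.16 against 10.68 and 10.53 (-1.76 ± 0.18). In each case the 2 basal samples were closer to each other than to either apical one, which the rule for naming them favoured. Limma gave an adjusted p of 0.0461 for each.

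The remaining 3 lower genes were an RNA-binding protein, a phosphatase relative and an uncharacterised gene. Rbm24, an RNA-binding protein that guides splicing in hair cells and muscle, had log2 signals of 9.40 and 9.03 in the apex and 7.18 and 7.27 in the base (-1.99 ± 0.22). AI593442 gave 11.33 and 11.14 against 9.42 and 9.38 (-1.84 ± 0.21), and Mtmr11, of the myotubularin family, 9.62 and 9.38 against 7.87 and 7.95 (-1.59 ± 0.18). None of these groups overlapped, which the rule for naming them required, and limma's adjusted p was 0.0461 for each. Other probe sets gave smaller differences: -0.77 for the second of AI593442, -0.73 for that of Mtmr11, and -0.08 to -1.30 for 4 others of Rbm24, 3 of them under the filter. Averaged over all probe sets of the gene, the difference of Rbm24 was -0.92.

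Of the pair that was higher in the base, Ppp1r1b encodes DARPP-32, a phosphatase inhibitor regulated by cyclic AMP signalling. Its log2 signals were 8.77 and 8.06 in the apical and 11.65 and 11.48 in the basal cKO samples, a difference of 3.15 ± 0.37 (adjusted p = 0.0496, limma). Chad, chondroadherin, a matrix protein of cartilage, had 10.78 and 10.96 against 12.22 and 12.46, a difference of 1.47 ± 0.16 (adjusted p = 0.0461, limma). Basal samples stood above apical ones without overlap in both genes, as the rule for naming them required.

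Genes next in order of p did not pass. On the lower side Strip2, a protein of striatin complexes expressed by outer hair cells, gave -1.94 ± 0.23 (adjusted p = 0.0533, limma). Flrt2, a membrane protein of axon guidance (-1.21 ± 0.15), Gfi1, a transcription factor that outer hair cells need to survive (-2.40 ± 0.31), and Egfl6, a secreted matrix protein (-2.06 ± 0.26), each had adjusted p = 0.0609 by limma. Zfp618, a zinc finger protein, gave -1.47 ± 0.19 (adjusted p = 0.0621, limma), and -0.91 averaged over its probe sets. On the higher side 13 genes made up the number to 15 by smallest p, with limma's adjusted p from 0.0609 to 0.0983. They included matrix and bone genes: Col11a2, a fibrillar collagen chain of the tectorial membrane and cartilage (1.63 ± 0.21), Omd, osteomodulin (1.64 ± 0.25), Phex, a peptidase of bone mineralisation (1.40 ± 0.22), and Smpd3, a sphingomyelinase needed for skeletal growth (1.58 ± 0.21). Vascular and lipid genes were among them too: Ptgis, prostacyclin synthase (1.79 ± 0.24), Slco1a4, an organic anion transporter of vessels (1.34 ± 0.19), Ptprb, an endothelial phosphatase (1.18 ± 0.18), and Lcat, which esterifies cholesterol (1.24 ± 0.19). The others were the Wnt receptor Fzd9 (1.31 ± 0.19), the p38 kinase activator Map2k6 (1.47 ± 0.23), the metalloreductase Steap4 (1.34 ± 0.20), Depp1 (1.35 ± 0.21) and the kinase Stk17b (1.44 ± 0.23). Of the other probe sets of Stk17b, 1 gave 1.65 and 1, under the filter, -1.67. Averaged over probe sets the differences were 0.48 for Stk17b, 0.61 for Ptprb and 0.27 for Steap4.

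**Figure D2:**
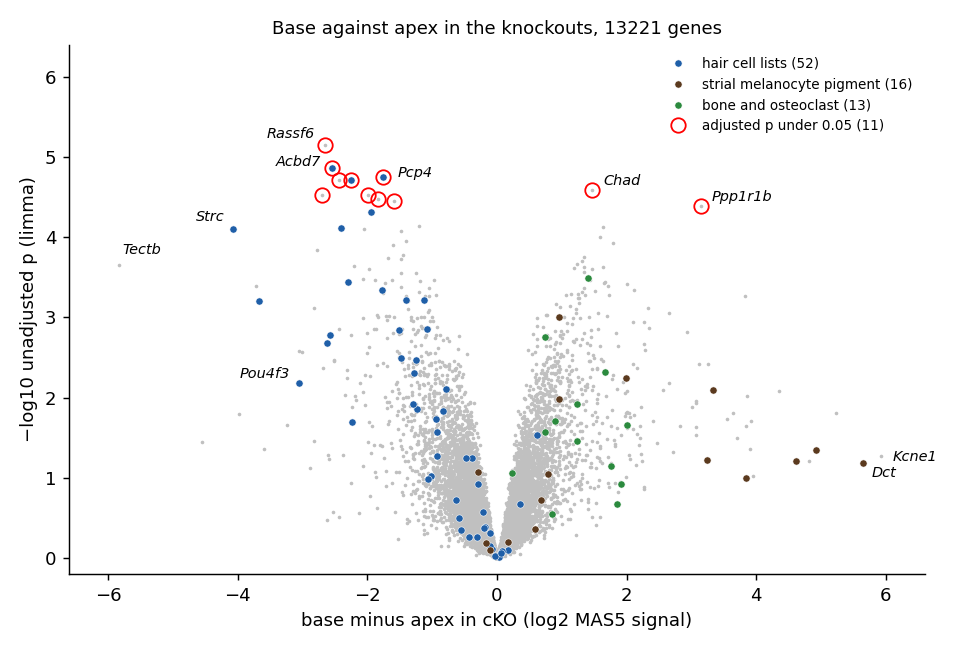
Base minus apex difference in cKO (log2 MAS5 signal, horizontal) against the unadjusted limma p (−log10, vertical) for 13221 genes, with members of the hair cell lists, strial pigment and bone lists coloured and the 11 genes past the adjusted threshold ringed. Hair cell genes lie mostly on the lower side and bone genes on the higher side, while Dct (5.64) and Kcne1 (5.93) combine a large difference with a spread between replicates that leaves their p above 0.05.

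Most hair cell genes had lower signals in the base than in the apex. In the list of hair cell transcription factors and soma proteins, 3 of 16 tested members passed and were lower (background 0.0681%), none was higher, and 13 were lower at an unadjusted p under 0.05 (background 5.66%). Those 3 were Acbd7, Pcp4 and Smpx, described above, and the list was written with earlier results of these data known. The median over the list was -1.62 against -0.02 over all genes. It was -1.28 with a filter at the 60th percentile or probe sets averaged per gene, and -1.16 without cKO base replicate 1. Basal samples lay under apical ones without overlap for 13 members, where the background is 25.6% of all genes. Pou4f3, a factor that hair cells need to survive, had log2 signals of 7.73 and 8.07 in the apical and 4.55 and 5.14 in the basal cKO samples. Its basal mean was under the filter, so the apex was at least 6.16-fold higher with low values raised to the filter (-3.05 ± 0.82, adjusted p = 0.218, limma). Gfi1 stood at 9.47 and 9.0 against 6.82 and 6.84, a gap far wider than that between replicates. Myo7a gave a smaller difference, -0.94 ± 0.31, with 9.17 and 8.42 against 7.68 and 8.02.

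The hair bundle list, the proteins of stereocilia and of mechanotransduction, had 9 of 21 tested members lower and 1 higher at an unadjusted p under 0.05 (background 5.66% and 5.61%), none past the adjusted threshold, and a median of -0.92 (-0.58 without cKO apex replicate 1 or with a filter at the 60th percentile). Strc, stereocilin, which forms the links between stereocilia and their attachment to the tectorial membrane, stood at 9.33 and 8.77 in the apex and 4.22 and 5.75 in the base. The apex was at least 11.6-fold higher on the filter's floor (-4.06 ± 0.52, adjusted p = 0.0609, limma). Fscn2, an actin cross-linker of the bundle, had 7.08 and 7.02 against 5.08 and 4.43, at least 3.42-fold higher in the apex. Both genes had basal values around the filter, while their apical values were well over it. The tip link protein Pcdh15 (-1.41 ± 0.25), its partner in the transduction complex Lhfpl5 (-1.52 ± 0.31), the bundling protein Pls1 (-1.12 ± 0.20) and the channel subunit Tmc1 had basal values under the apical ones too. For Tmc1, whose basal mean was under the filter, the apex was at least 1.46-fold higher. Going the other way, Eps8l2, a protein of stereocilia tips, gave 0.61 ± 0.23 (9.36 and 9.0 against 9.69 and 9.90).

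In the outer hair cell list 4 of 6 tested members were lower at an unadjusted p under 0.05 (background 5.66%) and none was higher, with a median of -1.50 (-0.64 with a filter at the 60th percentile and -0.45 with probe sets averaged per gene). Chrna9, a subunit of the receptor for efferent acetylcholine, had log2 signals of 7.88 and 7.73 in the apical and 3.29 and 4.98 in the basal cKO samples. The apex was at least 5.79-fold higher (-3.68 ± 0.65, adjusted p = 0.107, limma). Lmod3, an actin nucleator, had 8.68 and 8.31 against 5.84 and 6.01 (-2.57 ± 0.54). The motor protein prestin, Slc26a5, lay under the filter and was not tested; its signals were 5.14 and 5.05 in the apex and 1.73 and 1.41 in the base. Not every member took part: the potassium channel Kcnn2 gave 0.06 ± 0.26 and the calcium-binding Sri -0.20 ± 0.23. The zinc finger factor Ikzf2 gave -1.07 ± 0.22, but 0.05 with the mean of its probe sets.

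The inner hair cell and ribbon synapse list had 4 of 13 members lower and none higher at an unadjusted p under 0.05 (background 5.66% and 5.61%). The median was -0.42; it was -0.26 with probe sets averaged per gene, -0.29 without cKO apex replicate 2 and -0.70 without cKO base replicate 1. Cabp2, a calcium sensor of the synapse that the soma list also holds, stood at 8.78 and 8.34 in the apex and 6.41 and 7.16 in the base (-1.78 ± 0.30). Otof, which couples calcium to vesicle release, had 8.69 and 8.28 against 6.97 and 7.45 (-1.28 ± 0.32). Dnajc5b, a vesicle chaperone (-1.25 ± 0.30), and the calcium channel Cacna1d (-0.78 ± 0.22) were the other 2, and their samples did not overlap either. The second probe set of Cacna1d gave 0.23, and the average of both -0.28. The calcium buffer Calb1 was 9.92 and 9.88 in the apex and 7.05 and 7.51 in the base (-2.62 ± 0.57). The buffer S100b, also made by glia, gave 0.42 ± 0.12, and 1.1 averaged over its probe sets. These were the only 2 of 7 calcium buffer genes with an unadjusted p under 0.05.

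Among supporting cell genes 21 of 28 tested members had a negative difference. At an unadjusted p under 0.05, 11 were lower and none higher (background 5.66% and 5.61%), none passed the adjusted threshold, and the median was -0.58. Jag1, a Notch ligand of supporting cells, had log2 signals of 10.10 and 10.19 in the apex and 8.57 and 8.93 in the base (-1.40 ± 0.19, adjusted p = 0.074, limma), and a difference of -0.73 averaged over its probe sets. Sox2 had 10.91 and 10.81 against 9.45 and 9.30 (-1.48 ± 0.23, adjusted p = 0.0952, limma). Both genes kept a gap of over 1 log2 unit between the regions. The growth factor receptor Fgfr3, which marks pillar and Deiters cells, gave -1.32 ± 0.28, the factor Gata3 -1.05 ± 0.30 and the tight junction gene Cldn9 -0.52 ± 0.13. Gjb2, the gap junction protein connexin 26, which supporting cells share with lateral wall fibrocytes, went the other way at 0.36 ± 0.19. In the Notch list, which also holds Jag1 and Sox2, 3 of 16 members were lower and 1 higher at an unadjusted p under 0.05. Lfng, which modifies Notch, gave -1.04 ± 0.40 and the vascular receptor Notch3 0.68 ± 0.29.

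**Figure D3:**
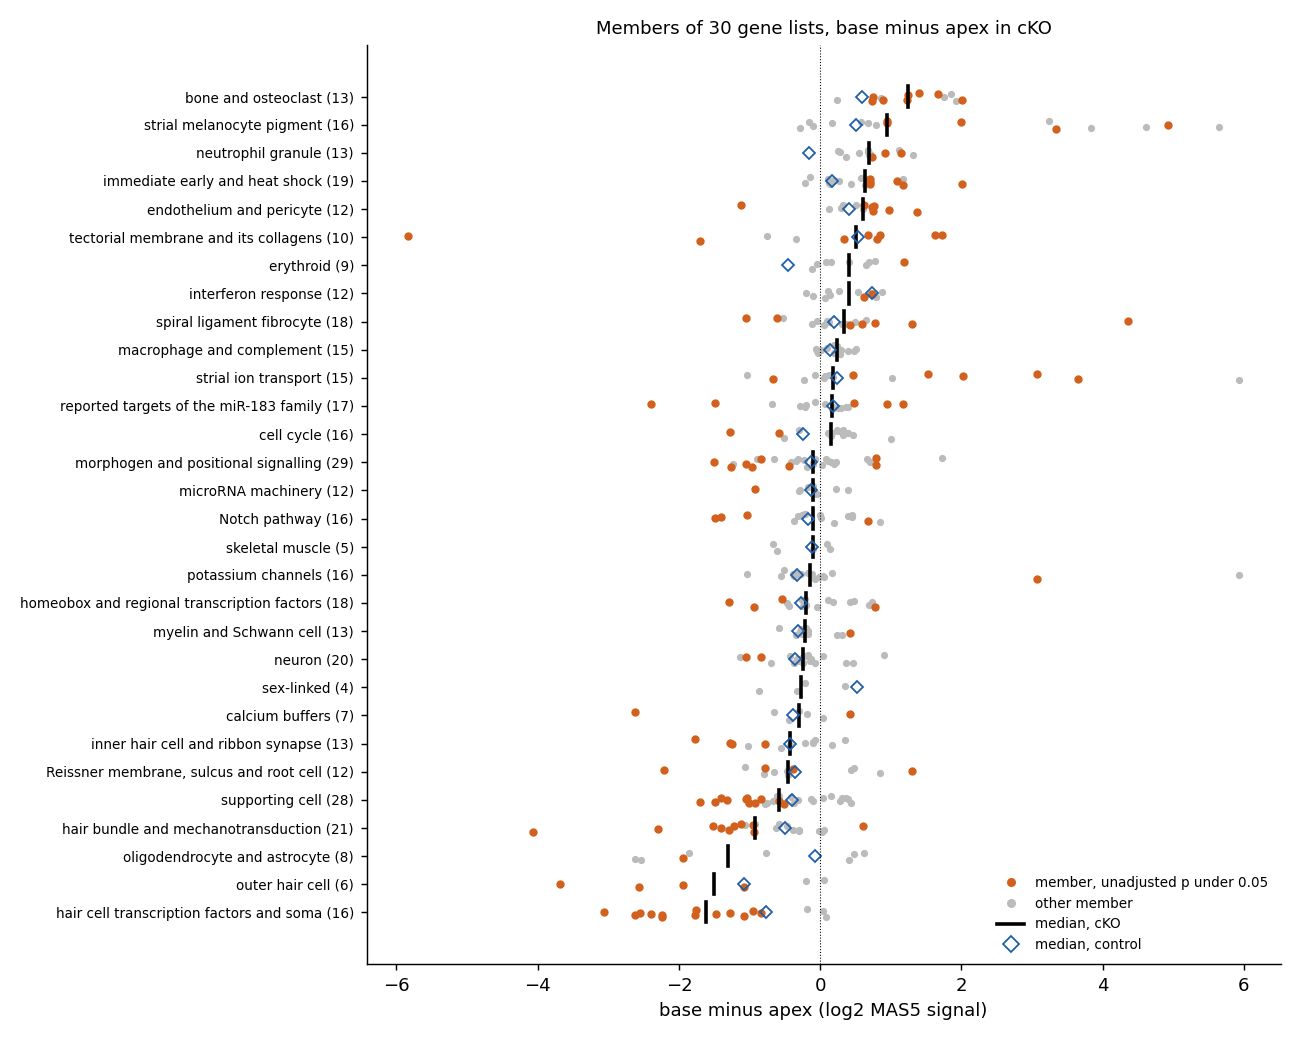
Base minus apex difference in cKO (log2 MAS5 signal) of each tested member of the 30 gene lists, ordered by the list's median (black bar), with the number of tested members in brackets and the control median as an open diamond. The hair cell soma list lies lowest, with a cKO median of -1.62 and a control median of -0.77, and the bone list highest, at 1.24 and 0.59.

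The tectorial membrane genes differed in both directions. At an unadjusted p under 0.05, 6 of 10 members were higher and 2 lower (background 5.61% and 5.66%), with none past the adjusted threshold. Tectb, beta-tectorin, a glycoprotein of the striated sheet matrix, had log2 signals of 13.28 and 13.48 in the apical and 6.38 and 8.71 in the basal cKO samples. Its difference, -5.83 ± 0.88, was the most negative of all 13221 genes, yet the 2 basal samples were over 2 log2 units apart (adjusted p = 0.0921, limma). Otog, otogelin, which anchors the membrane, had 11.87 and 11.29 against 9.68 and 10.08 (-1.70 ± 0.33). Collagen chains lay on the other side. Col9a2 was 11.21 and 11.03 in the apex and 12.75 and 12.96 in the base (1.73 ± 0.30), and Col11a1 (0.84 ± 0.21) and Col2a1 (0.67 ± 0.20) were also higher in the basal samples. Cartilage and bone express these collagens too. Tecta, alpha-tectorin, was near the filter on all 4 arrays, at 5.94 and 6.08 against 5.47 and 5.03.

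Pigment genes of the stria vascularis, whose intermediate cells are melanocytes, had a positive difference in 13 of 16 tested members. At an unadjusted p under 0.05, 5 were higher and none lower (background 5.61% and 5.66%), none passed the adjusted threshold, and the median was 0.95. Basal samples lay above apical ones without overlap for 12 members (background 23.2% of all genes). Dct, a melanin enzyme, had log2 signals of 6.91 and 9.36 in the apex and 13.91 and 13.65 in the base (5.64 ± 2.61, adjusted p = 0.481, limma). In controls Dct stood at 11.87 and 6.19 in the apex and 5.96 and 13.88 in the base, so the control samples of each region differed more from each other than the cKO regions did. That spread enters the standard error of the knockout comparison, since the fit shares it between groups. Tyr, tyrosinase, had 4.93 and 5.56 in the cKO apex and 10.28 and 9.45 in the cKO base, at least 21.7-fold higher. Kit, the receptor that melanocytes depend on, gave a smaller and more even difference, 9.60 and 9.79 against 10.52 and 10.77 (0.95 ± 0.18). Pmel, a melanosome protein (2.00 ± 0.52), Gpr143, a melanosome receptor (at least 4.8-fold higher in the base), Mlana (at least 7.8-fold) and Mitf, the master regulator of the lineage (0.95 ± 0.28), were the other 4 with an unadjusted p under 0.05.

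Promoter letters of some pigment genes are shown because MITF, the regulator of this lineage, has a known binding word, and genes that hold it can be set beside their values. TCATGTG, the core of the M-box that MITF can bind, was searched on both strands from 250 bases before to 50 bases after each RefSeq start on GRCm38.p6. It includes the shorter E-box CATGTG, so that each match to the longer word is a match to the shorter one, which 50% of the pigment genes and 15.9% of all genes held. Of 14 pigment genes with a listed promoter, 6 held TCATGTG (42.9%), against 4.31% of 27025 genes with a promoter. Among those, Dct and Tyr were tested, Tyrp1, Trpm1 and Mc1r lay under the filter, and Slc24a5 had no probe set under the rules used. Windows around the match on the gene's own strand follow for 4 of these genes, with the word in capitals.
Dct, chr14:118052351-118052437, minus strand, first base of the word at -151: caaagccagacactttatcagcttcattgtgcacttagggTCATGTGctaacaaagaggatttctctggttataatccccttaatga
Tyr, chr7:87493488-87493574, minus strand, first base at -22: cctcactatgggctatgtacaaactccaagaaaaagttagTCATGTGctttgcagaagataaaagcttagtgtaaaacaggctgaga
Tyrp1, chr4:80834126-80834212, plus strand, first base at -47: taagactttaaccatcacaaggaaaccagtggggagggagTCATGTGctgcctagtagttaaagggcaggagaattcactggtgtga
Trpm1, chr7:64153653-64153739, plus strand, first base at -142: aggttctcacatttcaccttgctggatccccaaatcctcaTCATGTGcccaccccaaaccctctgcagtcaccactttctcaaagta
Trpm1, a melanocyte channel, had log2 signals of 2.42 and 3.84 in the apex and 9.07 and 8.05 in the base, while the melanin enzyme Tyrp1 had 5.33 and 4.98 against 5.93 and 5.02. The same word in both promoters thus stood beside different values. None of the 11 named higher genes with a listed promoter and none of the 15 named lower genes held TCATGTG.

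Among ion transport genes of the stria 5 of 15 tested members were higher and 1 lower at an unadjusted p under 0.05 (background 5.61% and 5.66%). The median was 0.18 (0.47 without cKO apex replicate 2). Kcne1 and Kcnq1 form the channel that secretes potassium into the endolymph. Kcne1 stood at 2.44 and 5.80 in the apex and 10.19 and 9.92 in the base, at least 22.9-fold higher (5.93 ± 2.58, adjusted p = 0.451, limma). Kcnq1 had 6.93 and 8.16 against 10.77 and 10.45 (3.07 ± 1.08). The nuclear receptor Esrrb (3.65 ± 1.17), the sodium pump subunit Atp1b2 (1.53 ± 0.52), the carbonic anhydrase Car12 (2.03 ± 0.71) and the transporter Slc12a2 (0.46 ± 0.15) made up the 5 with Kcnq1. Of 16 potassium channel genes, Kcnq1 was the 1 higher member at that p and none was lower. Eya4, a cofactor mutated in a hereditary deafness, was the lower one (-0.67 ± 0.20). Averaged over probe sets, the differences were 2.32 for Esrrb, 1.15 for Car12, 1.19 for Slc12a2 and -0.16 for Eya4. In the fibrocyte list 5 of 18 members were higher and 2 lower at that p; the transporter Slc4a11 stood at 8.68 and 9.22 against 13.40 and 13.20 (4.35 ± 1.22), while Coch gave -0.04 ± 0.16. The mean log2 level of the pigment list was 7.31 and 8.12 in the apical and 9.83 and 9.50 in the basal cKO samples. That of the hair cell soma list was 9.65 and 9.43 against 7.84 and 8.20. The part of tissue content in the hair cell values was not tested.

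**Figure D4:**
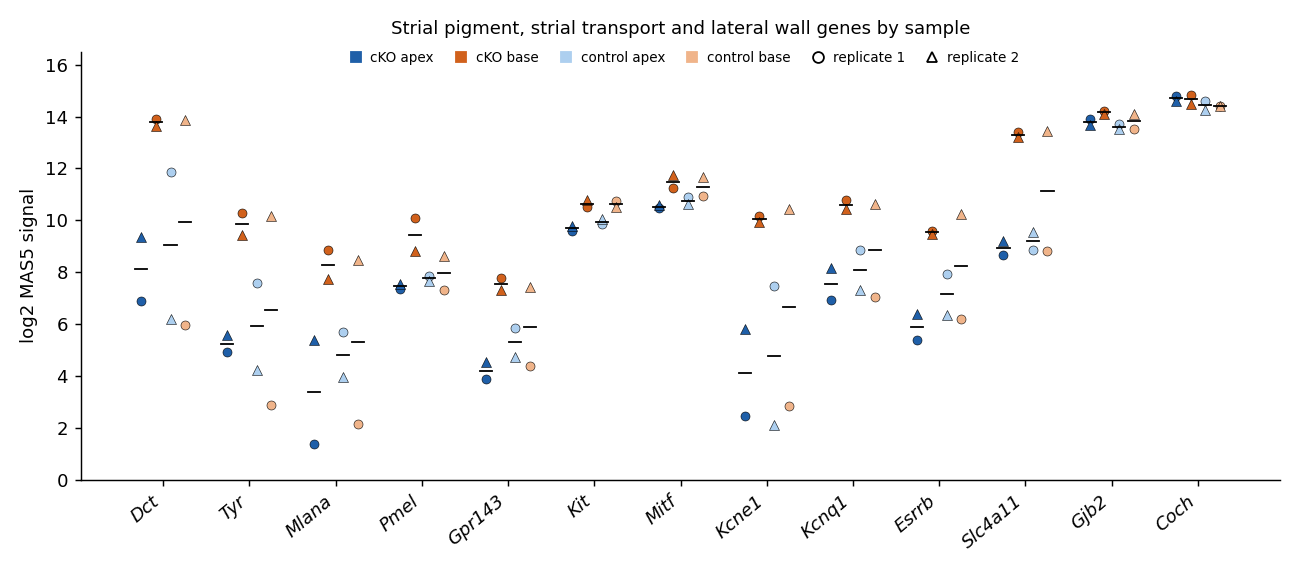
Log2 MAS5 signal of pigment, strial transport and lateral wall genes in all 8 samples, with circles for replicate 1, triangles for replicate 2 and bars for means of 2. Dct was 13.91 and 13.65 in cKO base and 6.91 and 9.36 in cKO apex, whereas control base held both a low (5.96) and a high (13.88) sample; Gjb2 and Coch were at similar levels throughout.

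Bone genes formed the list with the largest positive median, 1.24, against 0.59 in controls. All 13 tested members had a positive difference, 8 at an unadjusted p under 0.05 (background 5.61% higher), none past the adjusted threshold. Dmp1, a matrix protein of osteocytes, had log2 signals of 13.18 and 12.74 in the apex and 13.67 and 13.75 in the base (0.75 ± 0.16). Mepe, another osteocyte protein, had 8.27 and 7.25 against 10.91 and 8.63 (2.01 ± 0.69), so the 2 basal samples differed by over 2 log2 units. The alkaline phosphatase Alpl (1.67 ± 0.42), Ibsp, bone sialoprotein (0.89 ± 0.30), and the osteoclast protease Ctsk (1.24 ± 0.38) were also among the 8. The mean level of the list was 9.32 and 8.88 in the apical and 10.93 and 9.81 in the basal cKO samples. The part of bone tissue in the other basal values, Chad and the collagens among them, was not tested.

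In the endothelium and pericyte list, genes of blood vessels, 6 of 12 members were higher and 1 lower at an unadjusted p under 0.05 (background 5.61% and 5.66%), with a median of 0.61. The pericyte gene Rgs5 gave 0.77 ± 0.16 and the endothelial adhesion gene Esam 0.97 ± 0.26. Of the neutrophil granule list 3 of 13 were higher and none lower (median 0.70, against -0.16 in controls). The antimicrobial peptide Camp was 8.79 and 8.67 in the apex and 10.10 and 9.65 in the base (1.14 ± 0.29), and Prtn3, a granule protease, gave 0.70 ± 0.36. No member of the macrophage list had an unadjusted p under 0.05 (median 0.24). Of the erythroid list 1 of 9 did, Car2, a carbonic anhydrase that is not confined to red cells (1.19 ± 0.36). Only 5 of 14 skeletal muscle genes passed the filter, and Acta1, skeletal actin, gave 0.14 ± 0.44.

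Few genes of the neural lists had an unadjusted p under 0.05. In the myelin list 1 of 13 members was higher, S100b, and none lower at an unadjusted p under 0.05 (background 5.61% and 5.66%). Mbp gave -0.20 ± 0.11. In the neuron list 2 of 20 were lower, Gata3 and the vesicle protein Syt1 (-0.83 ± 0.29), and none was higher. The neuronal tubulin Tubb3 gave -0.13 ± 0.57. Of the 20, 16 had a negative difference, and the neuron median was -0.25. It hung on the basal samples: -0.56 without cKO base replicate 1 and 0.04 without cKO base replicate 2. The list of oligodendrocyte and astrocyte genes, cells of the central part of the nerve, had 1 of 8 members lower, the water channel Aqp4 (-1.94 ± 0.83), and a median of -1.31, but its 2 apical samples differed. Ermn, an oligodendrocyte protein, had log2 signals of 9.32 and 4.39 in the apex and 4.89 and 3.75 in the base. The mean level of the list was 8.76 in cKO apex replicate 1, 7.36 in replicate 2, and 7.20 and 6.88 in the base, and without cKO apex replicate 1 the median was 0.03.

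In the immediate early and heat shock list, genes that respond quickly to stress and stimulation, 6 of 19 members were higher and none lower at an unadjusted p under 0.05 (background 5.61% and 5.66%). The median was 0.64 against 0.17 in controls, and 0.27 without cKO base replicate 1. Atf3, a stress-induced transcription factor, had log2 signals of 6.44 and 6.26 in the apex and 9.29 and 7.41 in the base (2.00 ± 0.56), and Egr1 10.47 and 11.05 against 12.47 and 11.40 (1.17 ± 0.46). Basal replicate 1 was the higher of the basal pair in both. The small heat shock protein Hspb1 gave 1.09 ± 0.24. In the interferon list 2 of 12 were higher, Ifitm3 (0.73 ± 0.21), a restriction factor of the cell surface, and Rtp4 (0.62 ± 0.25, but -0.47 with the mean of its probe sets). Egr3, an early growth response factor, gave 0.71 ± 0.29, but -0.081 with that mean. None of 4 sex-linked genes had an unadjusted p under 0.05. Their mean log2 level, which pools X- and Y-linked genes and so is not the level of either kind, was 7.87 to 8.36 in the cKO samples. In controls it was 4.12 in the apex and 5.43 in the base of replicate 1, against 7.52 and 7.51 in replicate 2. This control spread enters the standard error of the cKO comparison, and its cause was not tested. In the cell cycle list 2 of 16 were lower, the mitotic kinase Plk1 (-1.27 ± 0.28) and Cdc20 (-0.59 ± 0.24), and none was higher.

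Of 29 tested genes of morphogen and positional signalling 6 were lower and 2 higher in the base at an unadjusted p under 0.05 (background 5.66% and 5.61%), none past the adjusted threshold, with a median of -0.09. Wnt7a, a secreted Wnt ligand, had log2 signals of 10.22 and 9.29 in the apex and 8.11 and 8.40 in the base (-1.50 ± 0.31). A second probe set of Wnt7a over the filter gave 0.86, and the average of its probe sets -0.20. Mycn, a growth-promoting transcription factor, had 9.21 and 9.45 against 8.23 and 8.51 (-0.96 ± 0.20). On the probe sets used, the basal samples of both lay under the apical ones. The retinoic acid carrier Crabp2 gave -1.26 ± 0.46 and Cyp26b1, which degrades retinoic acid, 0.79 ± 0.31, so that these genes of 1 pathway had opposite signs. A2m, a protease inhibitor of plasma, gave 0.79 ± 0.19, and the Wnt antagonist Sfrp1 -0.84 ± 0.29. Among 18 regional transcription factors 3 were lower, the nuclear receptors Nr2f1 (-1.29 ± 0.25) and Nr2f2 (-0.53 ± 0.22) and the homeobox gene Emx2 (-0.94 ± 0.24). Pou3f4, a factor of the otic mesenchyme, was the 1 higher member (0.77 ± 0.24). Averaged over probe sets, the differences were larger for Nr2f2 (-1.08), Sfrp1 (-1.4) and Mycn (-1.65). In the list of Reissner membrane, sulcus and root cells 3 of 12 were lower and 1 higher: Lockd (at least 3.37-fold lower), the factor Gata2 (-0.78 ± 0.16) and the matrix protein Epyc (-0.38 ± 0.15), then the anion exchanger Slc26a4 (1.31 ± 0.49).

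Dicer1 itself was measured at log2 signals of 9.41 and 9.17 in the apical and 9.30 and 9.06 in the basal cKO samples, against 9.57 and 9.19 and then 9.36 and 9.04 in controls. The base minus apex difference in cKO was -0.11 ± 0.22, so neither region stood apart, and a second probe set gave 0.39. Where these probes lie relative to the floxed part is not given in the sources used here, so the values do not measure deletion. Of 12 genes of the microRNA machinery 1 was lower and none higher at an unadjusted p under 0.05 (background 5.66% and 5.61%). The lower one was Ago4, an Argonaute protein (9.0 and 8.60 against 7.70 and 8.07, -0.92 ± 0.26).

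The mature miR-183 family is shown because its members depend on Dicer1 and because hair cells are rich in them; the arrays do not measure mature microRNAs. The sequences are RefSeq's on GRCm38.p6, minus strand of chromosome 6, with bases 2 to 8, the seed, in capitals.
mmu-miR-96-5p: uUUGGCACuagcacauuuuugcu
mmu-miR-182-5p: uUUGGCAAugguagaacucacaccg
mmu-miR-183-5p: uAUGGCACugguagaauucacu
Of 17 reported family targets, 3 were higher and 2 lower in the base at an unadjusted p under 0.05 (background 5.61% and 5.66%). The median was 0.17. Gfi1 and Sox2, given above, were the lower ones. Egr1, Mitf and the factor Foxo1 (11.41 and 10.97 against 11.60 and 11.75, 0.48 ± 0.20) were the higher ones.

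The same regional comparison in controls shared no array with that in knockouts. In controls limma called 0 of 13221 genes at the adjusted threshold. At an unadjusted p under 0.05 it found 994 (7.52%), of which 508 (3.84%) were higher and 486 (3.68%) lower in the base. Across genes, which are not independent replicates, the differences of the 2 genotypes correlated at r = 0.637 and rho = 0.612. All 11 genes that passed in knockouts had the same sign in controls, where their samples did not overlap either. The share of all genes that did so was not counted, so this is no added support for the 11. The control differences were -1.78 for Tunar, -1.81 for Rassf6, -1.68 for Acbd7, -1.67 for Slitrk6 and -1.33 for Smpx. They were -1.17 for Rbm24, -0.82 for AI593442, -0.71 for Mtmr11 and -0.52 for Pcp4, then 1.24 for Chad and 2.45 for Ppp1r1b. Each of the 11 was smaller in size than in knockouts, the samples in which these genes were picked.

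The difference between the genotypes was tested directly. At the adjusted threshold limma called 0 of 13221 genes. At an unadjusted p under 0.05 there were 149 (1.13%), 73 with a more positive (0.552%) and 76 with a more negative (0.575%) difference in knockouts, fewer than the 661 that chance gives. Among the genes of smallest p, Pcp4 was lower in the base of both genotypes but more so in knockouts: controls had 12.13 and 12.34 in the apex and 11.81 and 11.62 in the base. The difference of differences was -1.24 ± 0.26 (adjusted p = 1, limma). Steap4, which handles iron and copper, had 8.49 and 8.47 in the cKO apex and 9.64 and 10.01 in the cKO base, against 9.62 and 9.38 and then 9.13 and 9.35 in controls. On this probe set the genotypes had opposite signs, with a difference of 1.60 ± 0.29 that did not pass (adjusted p = 1, limma). The second Steap4 probe set, under the filter, gave -0.81 in cKO and 0.57 in controls, and the average of both left a difference of 0.11. The erythroid genes Hemgn (2.84 ± 0.61) and Gata1 (1.81 ± 0.45, with control basal signals under the filter), Clasrp, a splicing factor binding protein (1.85 ± 0.34), and Uroc1, a histidine-degrading enzyme (2.49 ± 0.54, or 1.45 averaged over probe sets), were the other 4 on that side. On the other side stood AI593442 (-1.02 ± 0.29), the adhesion receptor Celsr2 (-0.92 ± 0.24, or -0.47 averaged over probe sets), the growth factor Fgf22 and the lens crystallin Crybb3. Fgf22 had a cKO base under the filter (3.83 and 3.62) and Crybb3 a control apex under it (3.22 and 3.77). Their differences of -2.82 ± 0.69 and -2.50 ± 0.65 were -1.27 and -0.72 with low values raised to the filter. Celsr2, a reported target of miR-96, gave 9.75 and 9.58 in the cKO apex against 9.35 and 9.41 in the cKO base, and 8.84 and 9.0 against 9.53 and 9.59 in controls.

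Hair cell lists had more negative medians in knockouts than in controls: -1.62 and -0.77 for transcription factors and soma, -0.92 and -0.50 for the hair bundle, and -1.50 and -1.08 for outer hair cells. The inner hair cell list had -0.42 in both. Taken gene by gene, the median genotype difference was -0.74, -0.37, -0.19 and -0.19 in these lists, in that order. At an unadjusted p under 0.05 for it were 4 of 16, 4 of 21, 0 of 6 and 1 of 13 members (background 1.13%). The lists share members. In other settings the cKO median reached -1.16 for transcription factors and soma, -0.58 for the hair bundle, -0.45 for outer hair cells and -0.26 for inner hair cells. The control medians are from the main setting only. Individual bundle genes had an unadjusted p under 0.05 for the genotype difference, with none past the adjusted threshold (adjusted p = 1 for each, limma). Strc gave -2.22 ± 0.74, with control signals of 8.53 and 8.77 in the apex and 6.39 and 7.21 in the base. Fscn2 gave -1.48 ± 0.53, Pcdh15 -0.91 ± 0.35 and Lhfpl5 -1.03 ± 0.44, and Cabp2 of the synapse -1.35 ± 0.42. Tectb had nearly the same difference in both genotypes, -5.83 in knockouts and -6.16 in controls.

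**Figure D5:**
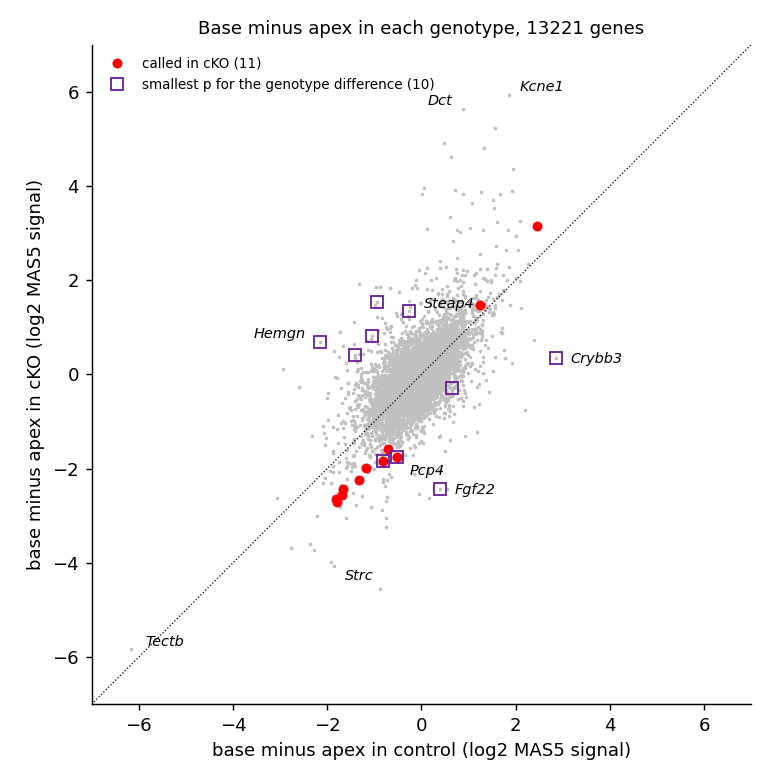
Base minus apex difference in cKO (vertical) against that in controls (horizontal), log2 MAS5 signal, for 13221 genes; the dotted line marks equal values. The 11 genes that passed in cKO (red) have the same sign in both genotypes, Tectb lies near the line at -6.16 and -5.83, and Dct and Kcne1 lie far above it, at 0.89 and 1.86 in controls against 5.64 and 5.93 in cKO.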

How the data were processed

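The deposited values are linear intensities, 1 per probe set, produced with MAS5 per the submitters' processing notes, which also name affy 1.26; the authors scaled each array to a trimmed mean (2% off each end) of 500, as tested on the values. Detection calls were not used here. The deposited intensities were log2 transformed here, with no pseudocount and no further normalization. Of 45101 probe sets, 64 were array controls, 34945 had 1 gene, 932 several and 9160 none listed; 34741 of those with 1 gene were matched by Entrez identifier. Each of 18194 genes took its value from 1 probe set, the highest by mean log2, and genes under the 40th percentile (5.27, a signal of 38.7) were not tested, leaving 13221.

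A linear model with 1 mean per group was fitted to the 8 samples in limma 3.58.1 (R 4.3.3). Variances were moderated by empirical Bayes along an intensity trend, with 4 degrees of freedom among samples and 3.46 more from the prior. All tests are two-sided, adjusted over all genes by Benjamini-Hochberg at a threshold of 0.05; errors are moderated standard errors. The procedure was tested on simulated data. The number of arrays limits the precision.

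Groups and numbers came from the titles. The labels tie each replicate to 1 mouse, so apex and base of 1 genotype and number are presumed to share a mouse; their deviations correlated at r = 0.0683 in cKO and 0.339 in controls. The p-values measure the spread between these few mice. "At least" folds take samples under the filter at its signal. The genes of the comparison and the 30 lists (470 genes) were chosen with earlier results of these data known. Named were the 15 genes in each direction that passed without overlap, filled up by smallest p, the 5 of smallest p in each direction for the genotype difference, and from each list up to 6 of smallest p and fixed markers; Tyr, Trpm1, Tyrp1, Mc1r, Slc24a5 and Atoh1 were named after their values were seen. Promoters and microRNAs are RefSeq's on GRCm38.p6. Alternatives covered the filter, a pseudocount of 16, normalization, probe set choice, variance model, mouse as a block, the compared groups alone, a threshold of 0.1, low values set to the filter's signal, and each sample left out in turn.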

Additional observations from a re-analysis of the deposited data

How the results depend on the processing

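The number of genes that passed in cKO base against apex (11) was 0 with no filter on low values, quantile normalization, centring on the 75th percentile, every probe set, no intensity trend, or a replicate block with the presumed mouse fixed. It was 6 when the probe sets of each gene were averaged, 12 with a filter at the 60th percentile, 13 with a pseudocount of 16 or with low values raised to the filter, 51 at a threshold of 0.1, 81 with a replicate block with the presumed mouse random (33 higher, 48 lower), and 449 with the compared groups alone (255 higher, 194 lower). Leaving out 1 sample gave 0 to 316. All 11 genes kept their direction in each of these settings, with sizes of at least 0.92. A block or a left-out sample could not turn it, since their cKO samples did not overlap and the other fits keep the cKO difference. In the settings with 0 that used all samples, their adjusted p in limma ran from 0.0508 to 0.105. The count in controls was 0 except without control base replicate 1 (551, 187 higher and 364 lower), so leaving out 1 sample gave 0 to 551, and the count for the genotype difference was 0 in all settings run. The replicate block changed no call in controls or for the genotype difference. Some signs turned. Without 1 cKO sample each, Acta1 ranged from -0.42 to 0.69, Coch from -0.21 to 0.12, Dicer1 from -0.23 to 0.016 and Tubb3 from -0.61 to 0.36. Quantile normalization gave 0.0040 for Coch, and the mean of probe sets 0.14 for Dicer1, -0.081 for Egr3, 0.053 for Ikzf2 and -0.47 for Rtp4. Of the combinations of a list median and a setting, 485 stayed within the spread between replicates and 85 moved by more. The causes were not tested. MAS5 signals under the filter have no reliable order, which limits Slc26a5, Strc, Fscn2, Tmc1, Pou4f3, Chrna9, Lockd, Fgf22, Crybb3, Gata1 and the low values of Kcne1 and the pigment genes.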

Other observations

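Probe sets with no listed gene were tested beside the named ones in a fit of every probe set over the filter. None of the 3086 passed limma's adjusted threshold, but in this fit none of the 23332 probe sets with 1 gene or the 604 with several passed either. At an unadjusted p under 0.05, 67 of the 3086 were higher and 136 lower in the cKO base. Among the 23332 with 1 gene, 1114 were higher and 1131 lower.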
